A study of Arabidopsis thaliana and Zea mays with 822 samples.

Results

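AtPDS3 gRNA8 is a guide RNA that directs the CasΦ-2 nuclease to the Arabidopsis gene PHYTOENE DESATURASE 3 (AtPDS3). Every amplicon library whose sample title names this guide or its control was taken, which gave 18 edited libraries and 4 control libraries among the 812 pattern tables of the series, which has 822 samples in all. Across the series, insertions and deletions (indels) left by the nuclease and its engineered forms at chosen sites in plant cells were counted by deep sequencing of a PCR product across each site. All 22 libraries came from mesophyll protoplasts (leaf cells without their wall) of wild-type Col-0 plants grown for 3 to 4 weeks. The enzymes were vCasΦ, in which the negatively charged tip of helix α7 is replaced by a short glycine and serine linker, nCasΦ, in which residues of that tip are replaced by alanine, and the unchanged WTCasΦ. Each was delivered as a ribonucleoprotein (RNP, purified protein already loaded with guide) with 4 replicate libraries per enzyme, or from a plasmid with 2 replicate libraries per enzyme. In the plasmid the UBQ10 promoter drives CasΦ-2 and the U6 promoter drives the guide. The controls were 3 RNP libraries, 1 for each enzyme loaded with a scramble guide, and 1 library for the plasmid experiment from protoplasts given a GFP plasmid. The gRNA8 libraries held 1806626 to 5163448 reads and the controls 2438061 to 5536725.

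CasΦ-2 is a compact RNA-guided nuclease found in large bacteriophages. It binds a target next to a short motif (the PAM) on the 5′ side of the guide sequence and cuts the DNA strands at different places at the far end of the target, and repair of the resulting 5′ overhangs in the cell commonly leaves deletions of several base pairs. Phytoene desaturase works early in carotenoid synthesis, and plants without it bleach. A deletion inside an exon can keep or shift the reading frame, and one that passes the exon boundary can also remove bases that splicing needs.

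The gRNA8 site was placed with the files themselves. At 14 positions, guide base 11 to base 24 counted on past the guide, the pattern labels name single-nucleotide variants, and the base never named as a variant is the reference base. These bases had 1 match on chromosome 4, inside AtPDS3. The site is chr4:8192775-8192794 on the plus strand of TAIR10.1, with its PAM, TCG, at chr4:8192772-8192774. AtPDS3 (AT4G14210, chr4:8190190-8195320) is transcribed from the minus strand, so the guide reads against the direction of transcription. All 3 annotated transcripts hold the exon with the site, chr4:8192651-8192799, which is 149 bp long and is coding part 6 of 14. Positions are counted here from 1 at the guide base next to the PAM, so that 20 is the last guide base, and 25, which is 5 bp past the site, is the last exon base on that side. That side is where the exon begins in transcription, and the splice acceptor of the 564-bp intron lies just past it, at chr4:8192800-8192801. The window chr4:8192769-8192813 is shown 5′ to 3′ on the plus strand, from the RefSeq genome sequence of TAIR10.1, to show how close the site lies to the boundary and which repeat lies in it.
Target of gRNA8 in capitals: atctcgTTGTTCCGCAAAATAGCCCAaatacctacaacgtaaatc
Exon in capitals, intron in lower case: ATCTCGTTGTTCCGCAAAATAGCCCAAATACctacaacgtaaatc
Direct repeat of 5 bases in capitals: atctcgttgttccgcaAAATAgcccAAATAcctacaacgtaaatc

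The 8 single deletions with the highest mean share of edited reads over the 18 libraries follow in that order, in the same window, with the deleted bases in capitals, because most edited reads of gRNA8 carried 1 of them.
Deletion of bases 16 to 24, 9 bp: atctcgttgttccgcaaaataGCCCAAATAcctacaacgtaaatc
Deletion of bases 16 to 22, 7 bp: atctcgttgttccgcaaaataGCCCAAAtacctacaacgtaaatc
Deletion of bases 13 to 22, 10 bp: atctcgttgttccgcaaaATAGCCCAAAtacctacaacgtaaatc
Deletion of bases 14 to 24, 11 bp: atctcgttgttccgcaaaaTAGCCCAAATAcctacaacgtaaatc
Deletion of bases 13 to 24, 12 bp: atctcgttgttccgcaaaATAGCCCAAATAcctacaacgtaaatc
Deletion of bases 12 to 22, 11 bp: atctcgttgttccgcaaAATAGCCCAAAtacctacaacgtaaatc
Deletion of bases 14 to 21, 8 bp: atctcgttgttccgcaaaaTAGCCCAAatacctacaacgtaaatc
Deletion of bases 14 to 23, 10 bp: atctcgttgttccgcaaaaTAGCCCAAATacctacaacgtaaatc
Together these 8 deletions made up a median of 76.4% of the edited reads of a library (range 66.6 to 100%, n = 18), and 6 libraries held all 8.

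A read was counted as edited where it belonged to a mutation pattern with an indel of at least 3 bp and with at least 100 reads in that library, and edited reads were divided by the total of the library to give the editing efficiency in percent. The 4 control libraries had no edited reads, and the floor set by 3 reads of their totals lay between 5.42e-05 and 0.000123%. Without the minimum of 100 reads, patterns with an indel of at least 3 bp made up 0.00327 to 0.00554% of the control reads. The pattern with the most reads in a control was a 10-bp deletion with 62 reads in the plasmid control. Every one of the 18 gRNA8 libraries lay above all controls by either count, and the least edited library, WTCasΦ RNP replicate 3, had 0.0387% edited reads (95% Wilson interval 0.0366 to 0.0410%). Intervals and floors cover counting error only, since several PCR reads can stem from 1 molecule and no molecular identifiers were used. In every pair of replicates of 1 group the pattern counts differed by more than sampling noise, with a chi-square per degree of freedom of at least 38.9.

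Delivered as RNPs with gRNA8, every nCasΦ library had a larger share of edited reads than every WTCasΦ and vCasΦ library, and vCasΦ was not separated from WTCasΦ. The vCasΦ RNP libraries had 0.200, 0.172, 0.145 and 0.0976% edited reads. The nCasΦ RNP libraries had 0.684, 1.03, 0.369 and 0.407%. The WTCasΦ RNP libraries had 0.0811, 0.215, 0.0387 and 0.0776%. The 4 nCasΦ values were all above the 8 values of the other enzymes, while the highest WTCasΦ value was above every vCasΦ value. The mean efficiency was 0.624 ± 0.307% for nCasΦ RNPs and 0.103 ± 0.0770% for WTCasΦ RNPs (SD, n = 4 each), a ratio of 6.05 (two-sided exact permutation test, p = 0.0286, adjusted p = 0.0429 over 3 contrasts). For vCasΦ RNPs it was 0.154 ± 0.0436% (n = 4), which was 0.247 times that of nCasΦ (exact permutation p = 0.0286, adjusted p = 0.0429) and 1.49 times that of WTCasΦ (exact permutation p = 0.286, adjusted p = 0.286). With 4 against 4 libraries the smallest possible p is 0.0286, and both calls were lost with 1 library fewer on one side: nCasΦ against WTCasΦ without any one of the WTCasΦ RNP replicates 1, 2, 3 or 4 (adjusted p of 0.0857 to 0.129, difference of 0.499 to 0.558 percentage points), and vCasΦ against nCasΦ without any one of the vCasΦ RNP replicates (adjusted p = 0.129, difference of -0.485 to -0.451), all by the same exact permutation test. Without WTCasΦ RNP replicate 2 the ratio over WTCasΦ was 9.47 for nCasΦ and 2.34 for vCasΦ, and with patterns of at least 0.01% of reads that of nCasΦ was 9.10.

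The RNP replicates of gRNA8 fell into a higher and a lower pair. For each of the 3 enzymes, replicates 1 and 2 both had a higher efficiency than replicates 3 and 4, with ratios of the pair means of 1.53 for vCasΦ, 2.21 for nCasΦ and 2.55 for WTCasΦ, and they were also sequenced more deeply. The margin was narrow for WTCasΦ, with 0.0811% in replicate 1 and 0.0776% in replicate 4. With gRNA10 RNPs the same order held for nCasΦ and WTCasΦ but not for vCasΦ. The titles name no batch, and whether a batch set this order was not tested. Within replicates 1 and 2 nCasΦ exceeded WTCasΦ by 0.711 percentage points, and within replicates 3 and 4 by 0.330. The differences of vCasΦ from nCasΦ within the same pairs were -0.673 and -0.267 percentage points. With 2 against 2 libraries neither could reach an exact permutation p under 0.333. With the replicate number as a block, the exact permutation p was 0.125 (adjusted p = 0.188) for nCasΦ against WTCasΦ and for vCasΦ against nCasΦ, the smallest p that 4 blocked pairs allow, so that neither call was kept.

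From plasmids the order of the variants was the other way round. The vCasΦ plasmid libraries of gRNA8 had 5.11 and 3.73% edited reads, the nCasΦ plasmid libraries 0.992 and 0.950%, and the WTCasΦ plasmid libraries 0.373 and 0.324%. No values of different enzymes overlapped. The mean was 4.42 ± 0.977% for vCasΦ, 0.971 ± 0.0299% for nCasΦ and 0.348 ± 0.0345% for WTCasΦ (SD, n = 2 each). Thus vCasΦ edited 12.7 times and nCasΦ 2.79 times as many reads as WTCasΦ, and vCasΦ 4.55 times as many as nCasΦ. Each exact permutation p was 0.333, the smallest that 2 against 2 libraries allow, so that none of these plasmid differences could pass the threshold of 0.05.

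The gap between the deliveries was widest for vCasΦ. For vCasΦ the mean efficiency was 0.154% as RNP and 4.42% from plasmid, a ratio of plasmid over RNP of 28.7. For nCasΦ it was 0.624% as RNP and 0.971% from plasmid, a ratio of 1.56, and for WTCasΦ 0.103% as RNP and 0.348% from plasmid, a ratio of 3.38. The log2 ratio of vCasΦ over WTCasΦ was 3.09 lower with RNPs than with plasmids (difference -3.09, exact permutation p = 0.290, adjusted p = 0.433 over 2 contrasts), and that of nCasΦ over WTCasΦ differed by 1.12 (exact permutation p = 0.433, adjusted p = 0.433). The log2 ratio of vCasΦ over nCasΦ, a contrast added because the reversed order had been seen, was -2.02 with RNPs and 2.19 with plasmids, a difference of -4.20. Permuting the enzyme labels within each delivery gave p = 0.00476 for it (two-sided exact permutation test), the smallest p this design allows. With RNP replicates 1 and 2 or 3 and 4 alone the exact permutation p was 0.0556, the smallest those libraries allow. All of these permutations take the enzymes as alike within each delivery. Their p-values therefore do not measure whether a ratio differs between the deliveries. RNPs and plasmids were separate experiments, so delivery and experiment cannot be told apart.

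Deletions accounted for nearly all reads counted as edited at the gRNA8 site. Indels of 1 or 2 bp lie outside this count. They made up 0.0129 to 0.140% of all reads in the RNP libraries and 0.0370 to 0.308% in the plasmid libraries. Over the 18 libraries, 167 different patterns passed the criterion, of which 139 were single deletions, 1 was a single insertion and 27 held several indels. Single deletions made up a median of 99.7% of the edited reads of a library (range 91.9 to 100%). The number of patterns varied with the enzyme and the delivery. The vCasΦ RNP libraries held 11, 11, 11 and 10 patterns, the nCasΦ RNP libraries 14, 12, 16 and 20, and the WTCasΦ RNP libraries 11, 14, 3 and 8. The plasmid libraries held 89 and 83 patterns with vCasΦ, 41 and 30 with nCasΦ and 16 and 19 with WTCasΦ. A pattern needs 100 reads in a library to be counted. The counts did not follow the number of edited reads throughout. Among plasmids, vCasΦ replicate 1 had 92329 edited reads and 89 patterns, and WTCasΦ replicate 1 had 7319 and 16. But nCasΦ RNP replicate 2 had 53353 edited reads and 12 patterns, and nCasΦ plasmid replicate 2 had 20532 and 30. Whether efficiency or depth set the counts was not tested.

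The deletion of bases 16 to 24 was the leading pattern of gRNA8. It removes the bases between the copies of the direct repeat AAATA together with 1 copy, 9 bp in all, so that starts from base 11 to base 16 give the same product. It led in 13 of the 18 libraries, in 7 of 12 with RNPs and in 6 of 6 with plasmids. In the vCasΦ RNP libraries it made up 28.6, 28.6, 12.1 and 25.0% of the edited reads, in the nCasΦ RNP libraries 31.8, 0, 21.0 and 20.9%, and in the WTCasΦ RNP libraries 20.0, 20.8, 0 and 11.1%. In the plasmid libraries it made up 20.1 and 23.5% with vCasΦ, 23.8 and 32.1% with nCasΦ and 27.3 and 32.4% with WTCasΦ. It was therefore at or above 20% in every plasmid library, while the RNP libraries ranged widely.

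In 2 RNP libraries the leading deletion fell under the minimum. The nCasΦ RNP replicate 2, the RNP library with the most edited reads (53353), held 10 reads of it, and WTCasΦ RNP replicate 3, with 1230 edited reads, held 2. The controls held 11 to 18 reads of the same deletion. In nCasΦ RNP replicate 2 the deletion of bases 16 to 22 led with 10067 reads, followed by those of bases 13 to 22 with 9766 and bases 14 to 23 with 7335. WTCasΦ RNP replicate 3 held only 3 patterns, the deletions of bases 12 to 22, 13 to 24 and 13 to 22, with 35.0, 33.4 and 31.5% of its edited reads.

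The deletion of bases 16 to 22 came next. It passed in 17 of 18 libraries, with 12.4, 11.2, 11.7 and 11.8% of the edited reads in the vCasΦ RNP libraries, 21.8, 18.9, 9.03 and 19.4% in the nCasΦ RNP libraries, and 5.24, 3.38, 0 and 32.6% in the WTCasΦ RNP libraries. In the plasmid libraries it made up 7.77 to 13.3%. The vCasΦ RNP libraries lay close together for this deletion, whereas the WTCasΦ RNP libraries held both its lowest and its highest share.

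Only the deletion of bases 13 to 22 passed in all 18 gRNA8 libraries, with a mean share of 11.9% in the 12 RNP libraries (range 3.40 to 31.5%) and of 8.52% in the 6 plasmid libraries (range 4.68 to 11.1%). The 11-bp deletion of bases 14 to 24 was among the 3 leading patterns with nCasΦ in both deliveries, at 10.6 ± 1.49% of edited reads as RNP (SD, n = 4) and 13.9 ± 0.588% from plasmid (SD, n = 2), but it averaged 6.52% with vCasΦ RNPs and 9.69% with WTCasΦ RNPs, within the range of 0 to 23.1% over all RNP libraries. The 12-bp deletion of bases 13 to 24 was among the 3 leading patterns with WTCasΦ in both deliveries. It made up 7.09, 19.0, 33.4 and 0% of the edited reads in the WTCasΦ RNP libraries and 16.3 and 4.07% in the WTCasΦ plasmid libraries, so that its replicates differed more than the groups. In vCasΦ RNP replicate 3 it stood at 96 reads, just under the minimum.

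With each deletion at its labelled placement, the one nearest the exon boundary, the deletion profile of gRNA8 centred on the end of the guide sequence. This held with every enzyme and both deliveries. At that placement 97.2% of the reads with a single deletion on average lost guide base 19 and 97.2% base 20. Base 13 was lost in 34.7% and base 25, the last base of the exon, in 9.24%. Starts at that placement lay mostly at 4 bases: base 16 (mean over the 18 libraries 37.7%), base 14 (20.8%), base 13 (20.5%) and base 12 (10.1%). At the same placement base 24 ended 42.4% of the reads with a single deletion (range 21.6 to 54.4%) and base 22 ended 32.6% (range 13.2 to 66.6%), and together they held a median of 75.0% (range 58.5 to 100%). Base 24 was the more frequent end in 8 of 12 RNP libraries and in 6 of 6 plasmid libraries. Both lie past the 20 guide bases, in the last exon bases before the boundary. These positions and the shares of lost bases depend on the placement, and the shares of lost bases were counted at the labelled placement only. With each deletion at its equivalent placement farthest from the boundary, the leading starts were base 11 (24.2%), base 15 (15.5%), base 12 (13.8%) and base 9 (11.8%), and the leading ends were base 19 (27.5%), base 23 (27.4%), base 21 (13.2%) and base 18 (11.0%), while base 22 ended 2.01%.

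The mean deletion size of a library lay between 8.59 and 11.9 bp in all 18, and deletions of 7 to 12 bp made up 72.6 to 100% of the single-deletion reads. With RNPs the mean size was 10.4 ± 1.37 bp for vCasΦ, 10.4 ± 0.917 bp for nCasΦ and 11.0 ± 0.917 bp for WTCasΦ (SD, n = 4 each). With plasmids it was 11.1 ± 0.00309, 10.2 ± 0.538 and 10.5 ± 0.217 bp for vCasΦ, nCasΦ and WTCasΦ (SD, n = 2 each). Among RNPs, vCasΦ differed from WTCasΦ by -0.622 bp and nCasΦ from WTCasΦ by -0.574 bp in mean size, less than 1 SD of the WTCasΦ replicates. The mean start was base 14.4 for vCasΦ, 14.4 for nCasΦ and 14.1 for WTCasΦ, and the mean end was base 23.8, 23.8 and 24.1 for the same enzymes. Including the shares of frame-keeping and boundary-crossing deletions given below, none of the 10 profile contrasts between RNPs passed the threshold (two-sided exact permutation tests, raw p from 0.400 to 0.971, each adjusted p = 0.971). RNP and plasmid libraries of gRNA8 differed by -0.0244 bp in mean size (10.6 bp in each on average), by -0.0572 bases in mean start and by -0.0816 bases in mean end. The exact permutation tests within enzymes gave an adjusted p of 0.958 for each. A p over the threshold does not show that the profiles are equal, and the RNP libraries with few patterns varied the most.

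Most deleted stretches of gRNA8 could be placed in more than 1 way because the bases at their edges repeat. All 139 single deletions are labelled at the placement nearest the exon boundary. Deletions with a repeat of at least 1 base at their ends made up 90.4% of the single-deletion reads in RNP libraries (range 71.8 to 100%) and 84.4% in plasmid libraries (range 81.3 to 90.0%), and those with a repeat of at least 4 bases 32.3% and 35.9%. Of the 137 different deletions of 3 to 20 bp that take in bases 18 and 19 in some placement, 31.4% have a repeat of at least 1 base and 1.46% one of at least 4 bases, namely the deletions of bases 16 to 24 and 13 to 22. Of the 67 of these 137 that passed in at least 1 library, 50.7% have a repeat of at least 1 base. This is a description of the sequence and was not tested.

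On average 33.9% of the reads with a single deletion kept the AtPDS3 reading frame within the exon (range 10.3 to 49.5%, n = 18). Indels of 1 or 2 bp are left out of this share. The share was 32.5 ± 15.2% for vCasΦ RNPs, 31.2 ± 16.1% for nCasΦ RNPs and 31.0 ± 10.8% for WTCasΦ RNPs (SD, n = 4 each). With plasmids it was 35.4 ± 2.89% for vCasΦ, 36.8 ± 5.58% for nCasΦ and 43.0 ± 5.00% for WTCasΦ (SD, n = 2 each). By library it was 28.6, 45.0, 12.7 and 43.7% with vCasΦ RNPs, 34.2, 10.3, 49.5 and 31.0% with nCasΦ RNPs, and 31.9, 42.4, 33.4 and 16.4% with WTCasΦ RNPs. The 6 plasmid libraries ranged from 32.9 to 46.5%. The spread among RNP replicates was thus far wider than the differences between enzymes, and the lowest of the 18 was nCasΦ RNP replicate 2. The 9-bp deletion was under the minimum there and in WTCasΦ RNP replicate 3, where 33.4% kept the frame. In vCasΦ RNP replicate 3 it held 12.1% of the edited reads and 12.7% kept the frame. Averaged over enzymes, the share was 31.6% in RNP and 38.4% in plasmid libraries, a difference of -6.81 percentage points (two-sided exact permutation test within enzymes, p = 0.268, adjusted p = 0.958 over 5 measures). Of the 139 single deletions, 51 have a size that is a multiple of 3.

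A pair of deletions carried most frame-keeping reads. The 9-bp deletion of bases 16 to 24 held 18.7% of the single-deletion reads in RNP libraries and 26.7% in plasmid libraries, and the 12-bp deletion of bases 13 to 24 held 8.37% in RNP libraries and 7.36% in plasmid libraries. On the annotated coding sequence the first leaves 563 of 566 residues, with codon 204 the first changed, and the second leaves 562, with codon 203 the first changed. The next, the 6-bp deletion of bases 16 to 21, held 1.25% in RNP libraries and 0.816% in plasmid libraries.

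Frame-shifting deletions inside the exon made up 60.5% of the single-deletion reads in RNP libraries (range 41.8 to 87.3%) and 53.0% in plasmid libraries (range 47.6 to 57.7%). The 6 others of the 8 commonest deletions are all of this kind. On the annotated coding sequence the deletion of bases 16 to 22 leads to a stop after 210 residues, 8 of them new, and that of bases 13 to 22 to a stop after 209 residues, 6 of them new. The deletion of bases 14 to 24 reads on to a stop after 232 residues, 30 of them new. The deletions of bases 14 to 23, 12 to 22 and 14 to 21 stop after 209, 232 and 233 residues. All 6 shifted frames thus ended at 209 to 233 of the 566 residues.

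Deletions that crossed the exon boundary held at most 17.9% of the single-deletion reads of a gRNA8 library. With RNPs and the labelled placement, deletions that reached the intron made up 14.6, 9.61, 0 and 0% of the single-deletion reads with vCasΦ, 1.43, 11.5, 8.71 and 9.51% with nCasΦ, and 9.99, 11.6, 0 and 17.9% with WTCasΦ. With plasmids they made up 8.99 and 9.59% with vCasΦ, 11.5 and 5.56% with nCasΦ, and 3.14 and 12.9% with WTCasΦ. The mean was 7.90% in RNP and 8.62% in plasmid libraries, a difference of -0.713 percentage points (two-sided exact permutation test within enzymes, p = 0.812, adjusted p = 0.958). Each pattern was also counted once instead of by its reads. Then 13.5% of the single deletions of an RNP library and 31.6% of those of a plasmid library crossed the boundary. The difference was -18.0 percentage points (exact permutation, adjusted p = 0.0281). This count depends on how many patterns pass the read minimum. An RNP library held 3 to 20 patterns and a plasmid library 16 to 89. Whether the number of patterns set the difference was not tested. By reads, deletions that crossed the boundary in every placement made up 6.05, 5.62 and 8.62% with vCasΦ, nCasΦ and WTCasΦ RNPs. With the plasmids of the same enzymes they made up 8.36, 7.91 and 7.32%. In nCasΦ RNP replicate 2 a 20-bp deletion of bases 7 to 26, with 5.77% of the edited reads, ends at base 25 when placed 1 base earlier. At the labelled placement 46.4% of the single-deletion reads in RNP libraries and 59.0% in plasmid libraries ended within the last 3 exon bases. Both bases of the splice acceptor were lost, in every placement of the deletion, in 5.17% of the single-deletion reads of RNP libraries (range 0 to 14.6%) and in 6.29% of those of plasmid libraries (range 3.14 to 8.42%). The most frequent deletion over the boundary, of bases 16 to 28, is 13 bp long, passed in 2 of 12 RNP and 4 of 6 plasmid libraries, and held 1.15% of the single-deletion reads over all 18 libraries. It is shown in the same window, with the lost bases in capitals, because it crosses the boundary in every placement. As labelled it takes both acceptor bases, and placed 2 bases earlier it takes 1 of them.
Deletion of bases 16 to 28, 13 bp: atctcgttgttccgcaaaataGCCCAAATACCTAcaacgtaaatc

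Deletions over 20 bp were a minor part of the gRNA8 profile, with 4.54% of the single-deletion reads in RNP libraries (range 0 to 9.53%) and 4.29% in plasmid libraries (range 2.07 to 6.05%). Patterns with several indels passed with vCasΦ and nCasΦ and in none of the 6 WTCasΦ libraries of gRNA8. Those WTCasΦ libraries held 1230 to 10645 edited reads, and a pattern needs 100 reads to pass. The vCasΦ RNP replicates 3 and 4, with 4414 and 2964 edited reads, held 4.06 and 8.13% in patterns with several indels. Replicates 1 and 2 of the vCasΦ RNPs, with 9915 and 7646 edited reads, held 0%. Whether the number of edited reads set this was not tested. With gRNA10, patterns with several indels did pass with WTCasΦ, at 2.44% of edited reads in plasmid replicate 1 and 2.13% in RNP replicate 4. They held 0% in gRNA10 WTCasΦ plasmid replicate 2 and RNP replicates 1, 2 and 3. With gRNA8, patterns with several indels made up 3.05 ± 3.89% of the edited reads with vCasΦ RNPs and 2.45 ± 1.80% with nCasΦ RNPs (SD, n = 4 each). From plasmids they made up 1.90 and 2.01% with vCasΦ and 1.13 and 0.545% with nCasΦ. The leading one combined a 3-bp insertion with a 3-bp deletion that starts at base 19. It passed in 5 libraries, with most reads (2090, or 3.92% of edited reads) in nCasΦ RNP replicate 2. The single insertion, of 3 bp, passed with 106 reads in vCasΦ plasmid replicate 1.

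Against gRNA10, the other guide to AtPDS3 in the same protoplasts and experiments, gRNA8 edited fewer reads and left longer deletions. In the gRNA10 plasmid control 1 pattern passed the criterion, with 635 reads (0.0168%). The least edited gRNA10 plasmid library, WTCasΦ replicate 1, had 0.781% edited reads. The scramble controls of gRNA10 had no edited reads. Averaged over enzymes the efficiency with RNPs was 0.294% for gRNA8 and 1.97% for gRNA10, a difference of -1.68 percentage points (exact permutation of guide labels within enzymes, two-sided, p = 5.83e-06, adjusted p = 2.33e-05 over 4 contrasts), and with plasmids 1.91% for gRNA8 and 5.96% for gRNA10, a difference of -4.04 percentage points (exact permutation p = 0.00926, adjusted p = 0.00926). Both raw p-values are the smallest the designs allow. The gRNA8 mean was 0.141, 0.167 and 0.0938 times that of gRNA10 with vCasΦ, nCasΦ and WTCasΦ RNPs, and 0.359, 0.213 and 0.355 times with the plasmids of the same enzymes. The mean deletion size with RNPs was 10.6 bp for gRNA8 and 9.22 bp for gRNA10, a difference of 1.35 bp (exact permutation p = 0.000898, adjusted p = 0.0018), and with plasmids 10.6 bp for gRNA8 and 9.67 bp for gRNA10, a difference of 0.932 bp (exact permutation p = 0.00926, adjusted p = 0.00926). By enzyme the size difference was 0.985, 1.08 and 1.99 bp with vCasΦ, nCasΦ and WTCasΦ RNPs. With the plasmids of the same enzymes it was 0.282, 1.28 and 1.23 bp, so that it was small for vCasΦ plasmids. With RNPs, nCasΦ had the highest mean with both guides, the ratio of nCasΦ over WTCasΦ was 6.05 for gRNA8 and 3.39 for gRNA10, and that of vCasΦ over WTCasΦ was 1.49 for gRNA8 and 0.994 for gRNA10. With plasmids, vCasΦ had the highest mean with both guides, the ratio of vCasΦ over WTCasΦ was 12.7 for gRNA8 and 12.6 for gRNA10, and that of nCasΦ over WTCasΦ was 2.79 for gRNA8 and 4.64 for gRNA10. Whether these ratios differ between the guides was not tested. The size difference was lost when indels of 1 or 2 bp were counted as well, at 0.237 bp with RNPs (exact permutation, adjusted p = 0.537) and 0.173 bp with plasmids (exact permutation, adjusted p = 0.333).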

How the data were processed

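Protoplasts were transfected in replicate, the site was amplified by PCR, and reads of each library were grouped into mutation patterns. The deposited files give counts: the number of reads of each pattern in 1 library, made by the authors with Trim Galore, BWA 0.7.17 and CrispRVariants, without molecular identifiers. The submitters' notes name TAIR10, and coordinates here come from TAIR10.1. The methods of the study set the criterion for an edit (an indel of at least 3 bp with at least 100 reads). In the smallest gRNA8 library 100 reads are 0.00554% of the total, and in the largest 0.00194%.

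Efficiency, single-deletion size, start, end, reading frame and crossing of the exon boundary were computed per library in SciPy 1.17.1 and NumPy 2.4.6 under Python 3.11.15. Each deletion was removed from the coding sequence and translated, and splicing was taken as annotated. Groups follow the sample titles, and replicates are replicate transfections as far as the labels say, so p-values measure the spread between these libraries. Differences were tested with two-sided exact permutation tests over libraries, with Benjamini-Hochberg adjustment within each family of contrasts and a threshold of 0.05. Contrasts of plasmid with RNP or of the guides permuted labels within enzymes. The patterns named first are the 3 with the highest mean share in each enzyme and delivery, the leading insertion and the leading pattern with several indels, and the others among the 8 commonest, and the leading deletion over the boundary, were chosen after their values were seen. The members and lists were chosen with earlier results of these data known. Alternatives were another read minimum, indel size, placement, weighting and scaling, single replicates left out, a replicate block, and the RNP replicates 1 and 2 or 3 and 4 alone, the last chosen after seeing the data. On simulated data the steps recovered 200 of 200 files and 200 of 200 placements, and 50 of 50 exact tests equalled those of SciPy.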

Additional observations from a re-analysis of the deposited data

Results flagged for a closer look

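Among 24 groups and measures of 4 libraries each, 1 library stood apart from its replicates by Dixon's criterion, which chance alone meets in about 1 of 20 groups. The vCasΦ RNP replicate 4 held 10 patterns of gRNA8, against 11, 11 and 11 in the other replicates, a gap of 1 pattern.

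The log2 ratio of vCasΦ over nCasΦ differed between RNPs and plasmids by -4.20 (two-sided exact permutation test, p = 0.00476, the smallest p possible). The contrast was chosen because the reversed order had been seen, and delivery and experiment cannot be told apart. The test takes the enzymes as alike within each delivery, so its p does not measure whether the ratio differs between deliveries.

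Indels of 1 or 2 bp, which the criterion for an edit leaves out, were more frequent in the edited gRNA8 libraries than in any control of the same delivery. In the 12 RNP libraries they reached 0.140% of all reads, in nCasΦ replicate 1, and all 12 lay above the highest scramble control, at 0.0119%. The lowest of them was WTCasΦ RNP replicate 3, with 0.0129%. In the 6 plasmid libraries they reached 0.308%, in vCasΦ replicate 1, and all 6 lay above the control, at 0.0101%.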

How the results depend on the processing

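Over the 28 tested differences and their alternatives, 474 values kept direction and side of the threshold, 20 fell short of it, 1 newly passed and 66 changed sign, the cause of which was not tested. The sign changes were all among profile differences that had not passed the threshold, and of the pattern shares 229 values moved by less than 1 SD and 11 by more.

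Values are given for vCasΦ minus WTCasΦ RNPs, nCasΦ minus WTCasΦ RNPs and RNPs minus plasmids, in that order where several stand. With patterns of at least 0.01% of reads, mean size differed by 0.680, 0.461 and 0.231 bp, end by 1.16, 0.616 and 0.0692 bases, crossing of the boundary by 3.89, 4.49 and 0.449 points, and the frame-keeping share of nCasΦ by -0.832. With each pattern counted once, start differed by -0.0506, -0.0126 and 0.865, the frame-keeping share of vCasΦ by -5.79 and of RNPs against plasmids by 2.84, and crossing of RNPs against plasmids by -18.0. With counts scaled to the smallest total, end differed by 0.534 for vCasΦ and 0.342 for nCasΦ, crossing by 0.247 and 1.61, and the frame-keeping share of nCasΦ by -0.632. With indels of 1 or 2 bp added, the end of nCasΦ differed by 0.191 and its frame-keeping share by -2.73, and with deletions placed farthest from the boundary the start of RNPs against plasmids by 0.0216.

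With RNP replicates 1 and 2 only, chosen after seeing the data, size differed by 0.642 for vCasΦ and 0.299 for RNPs against plasmids, end by 1.19 and 0.452, crossing by 1.32 and 1.17, start of RNPs against plasmids by 0.153, and the frame-keeping share by -0.342 for vCasΦ and -14.9 for nCasΦ. With replicates 3 and 4 only, crossing of nCasΦ differed by 0.165. Efficiency differed by 0.711 and 0.330 points in these pairs for nCasΦ against WTCasΦ, and by -0.673 and -0.267 for vCasΦ against nCasΦ. The vCasΦ over nCasΦ difference between deliveries was -4.39 and -3.86, no longer past the threshold (exact permutation, each p = 0.0556). The size of gRNA8 against gRNA10 differed by 0.901 bp with RNP replicates 3 and 4, by 0.328 bp with plasmids at 0.01% of reads, and by 0.237 bp with RNPs and 0.173 bp with plasmids when 1 or 2 bp indels were added, none past the threshold.

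The pattern shares of libraries with the same replicate number did not all deviate together (correlations of -0.607 to 0.324 in 12 RNP pairs and -0.00785 to 0.342 in 6 plasmid pairs). For each pair of enzymes the plasmid value was identical for replicates 1 and 2, so the 6 plasmid pairs are not separate evidence. The log2 efficiencies of the RNPs had correlations of 0.659 for vCasΦ and nCasΦ, 0.274 for vCasΦ and WTCasΦ and 0.904 for nCasΦ and WTCasΦ. Each rests on only 4 replicate numbers. The labels name no shared batch or day. With a replicate block the RNP efficiency differences were 0.520 for nCasΦ against WTCasΦ and -0.470 for vCasΦ against nCasΦ (exact permutation, each p = 0.125, adjusted p = 0.188), and no other call changed. The profile differences of RNPs against plasmids, separate experiments with 4 and 2 replicates, were not blocked.

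With single libraries left out, the RNP efficiency differences ranged from 0.0293 to 0.0881 for vCasΦ and 0.384 to 0.605 for nCasΦ against WTCasΦ, and from -0.554 to -0.333 for vCasΦ against nCasΦ. With plasmids these were 3.38 to 4.76, 0.599 to 0.647 and 2.76 to 4.14. The log2 ratios between deliveries ranged from -3.36 to -2.44 for vCasΦ and 0.76 to 1.76 for nCasΦ over WTCasΦ. Among RNPs, size differed by -1.04 to -0.0339 for vCasΦ and -0.996 to -0.224 for nCasΦ, start by -0.135 to 0.806 and -0.182 to 0.758, end by -0.881 to 0.299 and -0.742 to 0.149, frame-keeping by -3.40 to 8.08 and -5.87 to 7.18, and crossing by -7.10 to -1.14 and -5.37 to 0.596. RNPs against plasmids differed by -0.156 to 0.172 in size, -0.212 to 0.102 in start, -0.282 to 0.111 in end, -8.83 to -4.49 in frame-keeping and -2.34 to 0.915 in crossing. For gRNA8 against gRNA10, efficiency differed by -1.75 to -1.52 with RNPs and -4.27 to -3.81 with plasmids, and size by 1.22 to 1.55 and 0.805 to 1.06.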

Other observations

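Many gRNA8 patterns passed the criterion in 1 library only. Of the 167 patterns, 105 passed in a single library of 18, and together they held 6.51% of all edited reads. An RNP library held 1.42 such patterns on average (range 0 to 3) and a plasmid library 14.7 (range 1 to 37). The most read among RNPs was a 20-bp deletion in nCasΦ RNP replicate 2, with 3080 reads or 5.77% of the edited reads of that library, and a 26-bp deletion in WTCasΦ RNP replicate 2 had 567 reads or 5.33%. In RNP libraries such patterns held up to 10.4% of the edited reads, and in plasmid libraries 1.57 to 8.11%.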
